A study of Gallus gallus with 10 samples.

Results

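Hens that lay a regular clutch produce each egg a little later than the one before, and the time between 2 successive eggs, the egg-laying interval, differs from hen to hen. White isthmus RNA from 5 dwarf white hens (Gallus gallus) with a long interval, 25.8 h or more, was compared with that from 5 hens with a short interval, under 25.8 h. The long class held Translucent-1, Translucent-2, Translucent-5, Opaque-2 and Opaque-5, and the short class held Translucent-3, Translucent-4, Opaque-1, Opaque-3 and Opaque-4, so that all 10 of the 10 hens of the series entered the comparison. The intervals are those the study recorded for each hen over the days before sampling, and the 25.8 h limit uses no expression value. Translucent-5 lay at the limit itself and Translucent-4 was the nearest hen under it, so these hens differed little in interval although they were placed in different classes.

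The study sequenced mRNA-enriched libraries of the white isthmus to compare hens laying translucent eggs with hens laying opaque eggs, and the interval was not its grouping. All 10 hens were labelled wild type, came from 1 dwarf white population under selection, and were sampled at a fixed time after oviposition, while an egg lay in the white isthmus. By the study's methods, the translucent hens were picked for thinner and the opaque hens for normal shell membranes. The study also reported that membrane thickness at sampling did not differ significantly between these groups. The long class had 3 translucent and 2 opaque hens, and the short class had 2 translucent and 3 opaque hens, so the eggshell class was kept as a term in every fit unless stated otherwise. Every hen gave 1 library, so the spread within a class is a spread between animals.

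The oviduct of a laying hen works in sequence on the descending yolk. The tubular glands of the magnum secrete the egg white proteins, the glands of the isthmus spin the collagen-rich fibers of the shell membranes, and the shell gland adds the mineral. Ovulation follows soon after oviposition within a clutch, and its timing depends on a circadian gate for the luteinizing hormone surge and on progesterone from the ripest follicle, while prostaglandins and the neurohypophysial hormone vasotocin drive the expulsion of the egg.

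Totals were between 11645691 and 19014779 counts in long-interval hens and between 11601225 and 17794524 in short-interval hens, and their means did not separate the classes (exact permutation p = 0.71, adjusted p = 0.83 over 7 library properties). The defining markers of isthmus glands were abundant in all hens. COL10A1 (ENSGALG00000014965), a short-chain collagen abundant in shell membrane fibers, stood at 50799 to 66328 CPM in long-interval hens and 53193 to 59538 CPM in short-interval hens. CPM are counts scaled to a common library size, with factors from the trimmed mean of M-values (TMM). LOXL2, a lysyl oxidase homolog that crosslinks collagen, stood at 5050 to 16906 CPM in long-interval and 6813 to 12405 CPM in short-interval hens. Of the markers of other cell types, the summed level of the 6 magnum gland markers (FPKM, fragments per kilobase and sequencing depth) was 62760 to 139696 in long-interval hens and 63209 to 74982 in short-interval hens, and all 6 were detected. These markers did not move together. SPINK7 (ovomucoid) alone took 4.93% to 11.5% of all counts in long-interval and 5.32% to 6.37% in short-interval hens. OVA (ovalbumin) averaged only 2513 and 303 CPM and varied widely from hen to hen. The sum is therefore not read as an amount of magnum gland cells. The 5 matched shell gland markers, 1 of them without a read in any hen, summed to 4159 to 5577 FPKM in long-interval and 4502 to 5429 FPKM in short-interval hens.

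A pair of libraries, Translucent-1 and Opaque-5, stood apart, and both were long-interval hens. On the first principal component of log2 CPM, which held 39.8% of the variance, Opaque-5 lay at 78.3 and Translucent-1 at 54.7. The other 3 long-interval hens lay between -36.4 and -16.2, and the 5 short-interval hens between -20.2 and 11.9. The 10 most abundant genes took 23.9% of the counts in Translucent-1 and 22.5% in Opaque-5, while they took 17.8% to 19.9% in the other long-interval hens and 17.8% to 18.8% in the short-interval hens. The median SD of log2 CPM over the 12858 tested genes was 0.40 in the long class, against 0.24 in the short class, and it was 0.23 among the 3 long-interval hens other than Translucent-1 and Opaque-5. The SD was larger in the long class for 76.8% of genes, and for 48.0% once Translucent-1 and Opaque-5 were left out. The wider spread of the long class thus went with these hens. An SD of 3 hens tends to come out lower than an SD of 5, so the values without them are only roughly comparable. List medians and the main results are also given without Translucent-1 and Opaque-5. What sets these hens apart was not tested.

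**Figure D1:**
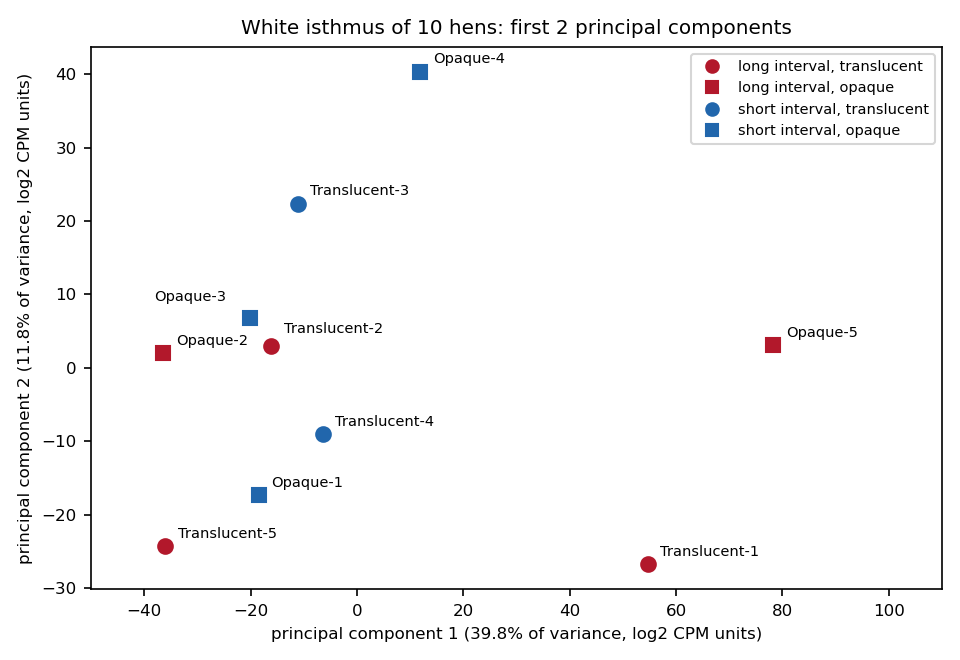
First 2 principal components of log2 CPM over the tested genes, with 1 point per hen. Red marks long-interval and blue short-interval hens, circles translucent and squares opaque hens, and the axes are component scores in log2 CPM units with their share of the variance. Opaque-5 at 78.3 and Translucent-1 at 54.7 lie to the right of all other hens, while the remaining long-interval hens lie among or to the left of the short-interval hens.

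In edgeR, the main test, no gene passed adjustment for the number of genes. Genes were called at an adjusted p under 0.05 with an absolute log2 fold change over 1, and edgeR's quasi-likelihood test called 0 of 12858 genes, or 0%, with a smallest adjusted p of 0.9995. An unadjusted p under 0.05 was reached by 327 genes. Of these, 190 were higher in long-interval hens, which is 1.48% of the genes tested, and 137 were lower, which is 1.07%. With an absolute log2 fold change over 1 as well, 48 were higher and 29 lower. Limma-voom with quality weights also called 0 genes, with 589 at an unadjusted p under 0.05. DESeq2, run on all 16273 genes with a read, called 8 genes, 3 higher and 5 lower, with 453 at an unadjusted p under 0.05. The long-minus-short difference was also compared between translucent and opaque hens as an interaction term, and edgeR called 0 of 12858 genes, or 0%, with 135 at an unadjusted p under 0.05 and a smallest adjusted p of 0.99996. Without Translucent-1 and Opaque-5 the long class held 3 hens, with Opaque-2 as its only opaque hen. The interaction would then rest on that 1 library, so it is not read without the pair. DESeq2 on all hens called 0 genes for that interaction, with 217 at an unadjusted p under 0.05.

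The split between higher and lower genes depended on the scaling. With library totals alone in place of TMM, 97 genes at an unadjusted p under 0.05 were higher and 295 lower. The median log2 fold change of all genes was 0.03 with TMM and -0.07 with library totals alone, a shift of the whole table, so fold changes are best read against 0.03. Without Translucent-1 and Opaque-5, the median of all genes was -0.01, and edgeR called 0 of 13152 genes, with a smallest adjusted p of 0.55. In that fit 1203 genes reached an unadjusted p under 0.05, 747 higher and 456 lower. The number also turned on single hens, with 904 genes when Opaque-2 was left out and 213 when Translucent-3 was left out. With the interval as a number of hours in place of the classes, 0 genes passed and the smallest adjusted p was 0.20.

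**Figure D2:**
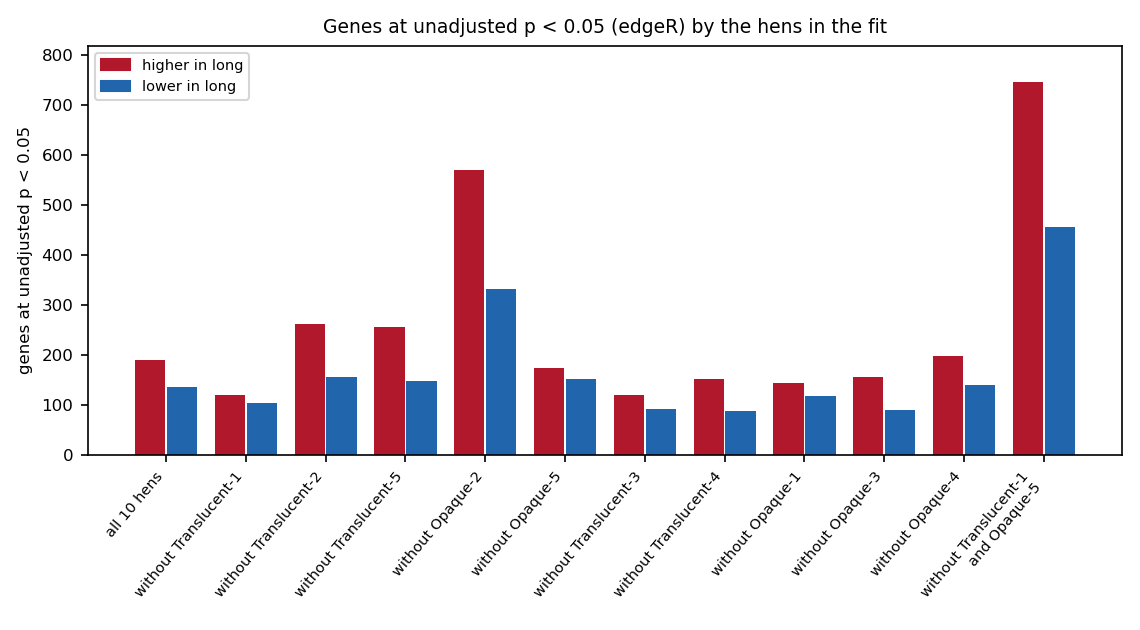
Number of genes at an unadjusted p under 0.05 in edgeR by the hens in the fit, with red bars for genes higher in long-interval hens and blue bars for genes lower in them. The fit of all 10 hens gave 190 and 137, leaving out Opaque-2 gave 571 and 333, and leaving out Translucent-1 and Opaque-5 together gave 747 and 456. No gene passed adjustment in any of the fits drawn.

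Egg white genes had the highest median of the 18 lists with all 10 hens, while without Translucent-1 and Opaque-5 the leukocyte list had the highest, 0.59. Of the 17 tested members, 14 had a positive log2 fold change, 0 were called, and 4 reached an unadjusted p under 0.05, all higher, against 1.48% of all genes. The median was 0.54, against 0.03 over all genes. Without Translucent-1 and Opaque-5 it was 0.33, 12 members were positive, and LYZ and RBP alone reached an unadjusted p under 0.05. Over all 13152 genes of that fit, 747 were higher and 456 lower at that p. The median was 0.59 within translucent hens and 0.55 within opaque hens. The list was drawn up with earlier results of these data in view. In bulk tissue, more secretory cells and more RNA per cell cannot be told apart. The 6 magnum gland markers are themselves members of the list, so their higher sum in Translucent-1, Translucent-2 and Opaque-5 is the same measurement and no separate check. In the long-interval hens Opaque-2, at 62760 FPKM, and Translucent-5, at 71097 FPKM, that sum was inside or below the short-interval range.

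LYZ (ENSGALG00000009963), lysozyme, which cleaves bacterial cell walls in the egg white, separated every hen. Its level was 699, 639 and 294 CPM in Translucent-1, -2 and -5 and 418 and 442 CPM in Opaque-2 and -5, all long-interval. It was 186 and 248 CPM in Translucent-3 and -4 and 250, 245 and 124 CPM in Opaque-1, -3 and -4, all short-interval. The lowest long-interval hen, Translucent-5, thus lay above the highest short-interval hen, Opaque-1. LYZ averaged 498 ± 167 CPM in long-interval hens and 211 ± 55.4 CPM in short-interval hens (SD, n = 5 each), with a log2 fold change of 1.19 ± 0.27 (SE). The log2 fold change was 1.32 within translucent hens, 1.06 within opaque hens, and 1.06 without Translucent-1 and Opaque-5. DESeq2 gave LYZ an adjusted p of 0.037, while in edgeR it did not pass. LYZ counts were fractional in all 10 hens, which RSEM gives where it divides reads between loci or transcripts, so its level is less certain.

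RBP (ENSGALG00000010293), the riboflavin-binding protein that carries vitamin into the egg, was far less abundant. It stood at 13.1, 13.3, 7.004, 18.9 and 9.59 CPM in Translucent-1, -2, -5, Opaque-2 and Opaque-5 (long), and at 3.55, 3.78, 8.15, 7.85 and 6.65 CPM in Translucent-3, -4, Opaque-1, -3 and -4 (short). Only Translucent-5 among the long-interval hens fell inside the range of the short class. The means were 12.4 ± 4.503 CPM in long-interval hens and 5.997 ± 2.20 CPM in short-interval hens (SD, n = 5 each), with a log2 fold change of 1.25 ± 0.28 (SE). RBP did not rest on the hens that stood apart, since the log2 fold change was 1.39 without them. DESeq2 gave an adjusted p of 0.037, and edgeR did not call it.

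TF (ENSGALG00000006453), ovotransferrin, the iron-binding protein of egg white, followed the same order with overlap. Its level was 24721, 15223, 11244, 22856 and 21588 CPM in Translucent-1, -2, -5, Opaque-2 and -5 (long) and 14028, 10755, 7998, 12320 and 14164 CPM in Translucent-3, -4, Opaque-1, -3 and -4 (short). All long-interval hens but Translucent-5 lay above every short-interval hen. TF averaged 19126 ± 5671 CPM in long-interval and 11853 ± 2567 CPM in short-interval hens (SD, n = 5 each), and its log2 fold change was 0.71 ± 0.25 (SE), or 0.49 without Translucent-1 and Opaque-5.

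Other abundant egg white genes were high in Translucent-1, Opaque-5 or both. SPINK7 (ENSGALG00000003512), ovomucoid, a trypsin inhibitor and the most abundant member, was at 134595 CPM in Translucent-1 and 98719 CPM in Opaque-5, at 68028, 56214 and 48111 CPM in Translucent-2, -5 and Opaque-2, and at 50048 to 61210 CPM in the short-interval hens. Its log2 fold change was 0.54 ± 0.27 (SE) with all hens and 0.01 without that pair. SPINK7 alone took 11.5% of all counts in Translucent-1 and 8.57% in Opaque-5. AvBD10, an avian beta-defensin, had 839 and 959 CPM in Translucent-1 and Opaque-5, between 196 and 255 CPM in the other long-interval hens, and 143 to 310 CPM in the short-interval hens. Its log2 fold change of 1.40 ± 0.47 (SE) was 0.28 without the pair. For SPINK7 and AvBD10 the higher class mean thus came from the pair.

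The ovalbumin gene (listed as OVA, ENSGALG00000012869), chosen for mention after its values were seen, varied widely from hen to hen. It had 11770, 45.6, 480, 200 and 71.7 CPM in Translucent-1, -2, -5, Opaque-2 and -5 (long), against 17.7, 1441, 54.0, 1.60 and 1.66 CPM in Translucent-3, -4, Opaque-1, -3 and -4 (short). The classes overlapped widely, and the values ran over several orders of magnitude within each of them. Its relative OVALY had the same extremes, with 505 CPM in Translucent-1 (long) and 90.4 CPM in Translucent-4 (short) as the highest of each class. The log2 fold changes, 2.65 ± 1.51 for OVA and 1.79 ± 1.32 for OVALY (SE), had wide errors and were 1.05 and 0.33 without Translucent-1 and Opaque-5. Avidin (AVD), which binds biotin, was highest in Translucent-1 at 176 CPM, and its other values were 37.5 to 82.6 CPM in long-interval hens and 20.2 to 59.7 CPM in short-interval hens. OVST, ovostatin, a protease inhibitor, and MUC5B, an ovomucin subunit that gives thick albumen its gel, had log2 fold changes of 0.36 ± 0.32 and 0.30 ± 0.30 (SE), with overlapping classes. The 3 members with a negative value were SPINK5, OvoDA1 and AvBD12, with log2 fold changes of -0.54, -0.25 and -0.14.

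**Figure D3:**
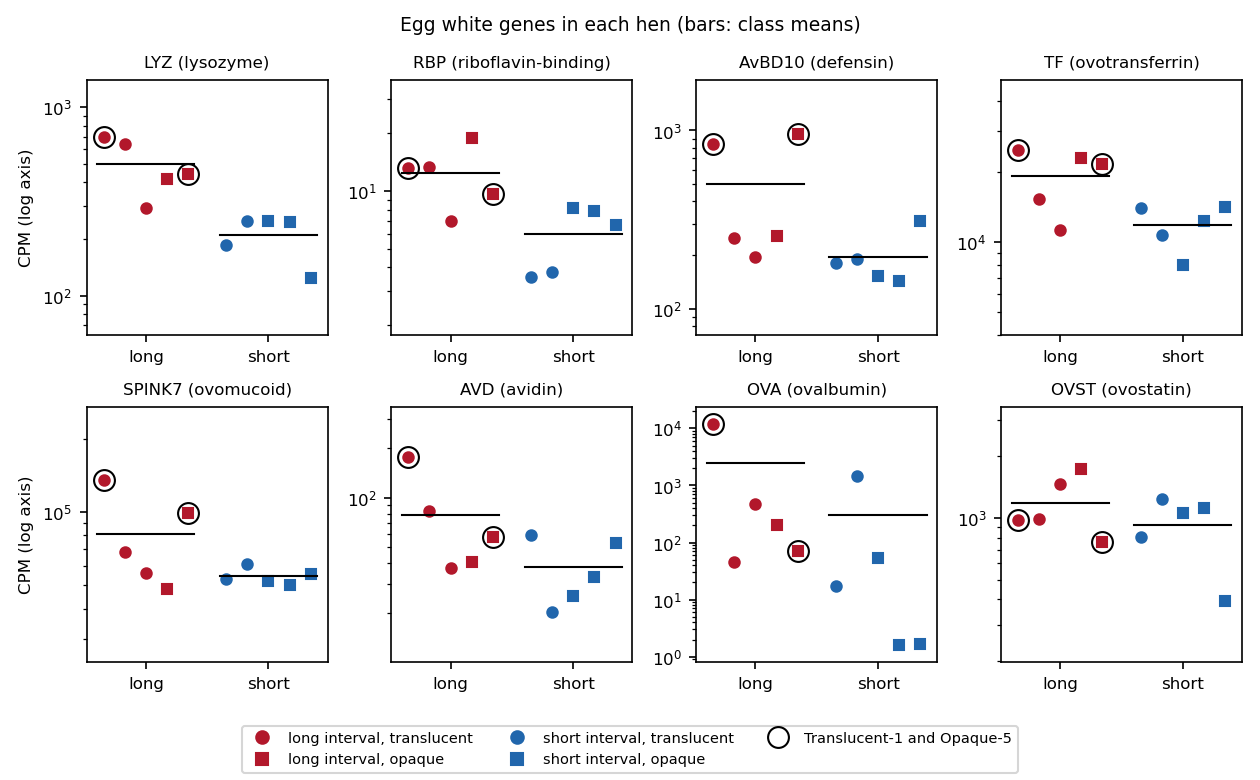
Level of 8 egg white genes in each hen, in CPM on a log axis, with long-interval hens (red) left of short-interval hens (blue), circles for translucent and squares for opaque hens, and black bars for the class means. Ringed points are Translucent-1 and Opaque-5. All 5 long-interval points of LYZ, from 294 to 699 CPM, lie above the short-interval points, which end at 250 CPM, while in SPINK7 and AvBD10 the ringed hens alone lie far above the rest.

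The genes with the smallest p-values among those with an absolute log2 fold change over 1 are given as values, since edgeR called none. The 10 higher in long-interval hens were RBP, LYZ, hspb11, FOXF1, PSAT1, HOMER1, FOLH1, Adm2, SUSD3 and NPAS2, and the 10 lower were HTR1F, RTase, DMBT1L, NSG1, Fer1l4, CACNA1B, CHRNA1, KLHL4, STK17A and SLC17A8. All 20 kept their sign within translucent hens, within opaque hens and without Translucent-1 and Opaque-5, which is a property of genes picked for a small p and no further evidence. Genes in which the 5 long-interval hens all lay above the 5 short-interval hens numbered 30, or 0.233% of those tested, and those in which they all lay below numbered 39, or 0.303%. Of these 69 genes, 8 had an absolute log2 fold change over 1.

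PSAT1, which makes phosphoserine on the way to serine, was at 41.8, 30.4, 38.4, 30.2 and 84.2 CPM in Translucent-1, -2, -5, Opaque-2 and -5 (long) and at 24.8, 19.5, 30.2, 17.6 and 17.1 CPM in Translucent-3, -4, Opaque-1, -3 and -4 (short). Opaque-5 was the highest hen, and the classes touched at about the level of Opaque-1. The log2 fold change was 1.07 ± 0.29 (SE) and 0.55 without Translucent-1 and Opaque-5. SLC1A4, a neutral amino acid transporter picked after its values were seen, did not overlap between classes, with 16.1 to 32.0 CPM in long-interval hens and 10.9 to 15.5 CPM in short-interval hens and a log2 fold change of 0.78 ± 0.19 (SE). GLUL, glutamine synthetase, likewise picked afterwards, had the smallest p of all genes and ran the other way, at a mean of 27.0 CPM in long-interval hens and 42.4 CPM in short-interval hens, with a log2 fold change of -0.78 ± 0.16 (SE) and an adjusted p of 0.9995 in edgeR. Unlike SLC1A4, GLUL was not among the 57 genes with a symbol that showed no overlap between classes. Its levels by hen and its value without Translucent-1 and Opaque-5 are not given here.

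Among genes of signalling, FOLH1, a glutamate carboxypeptidase, was at 14.1, 14.3, 18.1, 34.9 and 12.0 CPM in Translucent-1, -2, -5, Opaque-2 and -5 (long) and at 6.97, 2.97, 10.9, 12.7 and 17.6 CPM in Translucent-3, -4, Opaque-1, -3 and -4 (short). Opaque-2 was far above the others, and 3 long-interval hens lay within the range of the short class. Its log2 fold change was 1.20 ± 0.36 (SE) and 1.54 without Translucent-1 and Opaque-5, where DESeq2 called it. HOMER1, a scaffold of postsynaptic glutamate receptors, was at 15.2 and 20.4 CPM in Translucent-1 and Opaque-5, at 4.24 to 5.47 CPM in the other long-interval hens, and at 1.40 to 7.44 CPM in the short-interval hens. That gave HOMER1 a log2 fold change of 1.90 ± 0.57 (SE), and 0.94 without that pair. FOXF1, a transcription factor of visceral mesenchyme, was low in all hens, at 0.770 to 2.37 CPM in long-interval and 0.486 to 0.962 CPM in short-interval hens. The row listed as hspb11, a StringTie locus, had 5.65 to 35.1 CPM in long-interval and 2.89 to 8.32 CPM in short-interval hens, with Translucent-4 alone above the rest of the short class. Translucent-1 and Opaque-5 were its highest hens, and the log2 fold change was 1.96 ± 0.49 (SE) with them and 0.96 without them. Adm2, a StringTie locus named for adrenomedullin 2, a vasodilator peptide, had 7.801 to 25.9 CPM in long-interval and 5.62 to 14.3 CPM in short-interval hens. SUSD3, a small membrane protein, did not overlap, with 2.91 to 8.67 CPM in long-interval and 1.81 to 2.89 CPM in short-interval hens, and its log2 fold change was 1.17 ± 0.36 (SE), or 0.63 without the pair.

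HTR1F (ENSGALG00000015494), a serotonin receptor, had 0.369, 1.48, 0.569, 0.249 and 0.297 CPM in Translucent-1, -2, -5, Opaque-2 and -5 (long) and 2.65, 2.32, 3.04, 2.64 and 1.75 CPM in Translucent-3, -4, Opaque-1, -3 and -4 (short). Every long-interval hen lay below every short-interval hen. Its log2 fold change was -2.24 ± 0.48 (SE), or -1.88 without Translucent-1 and Opaque-5, and DESeq2 gave an adjusted p of 0.028. The level corresponding to 3 counts, which covers counting error only, was between 0.160 and 0.297 CPM across hens, so HTR1F in Opaque-2 and Opaque-5 stood at that limit. SLC17A8, a vesicular glutamate transporter, also did not overlap, with 0.0989 to 0.997 CPM in long-interval hens and 1.20 to 1.51 CPM in short-interval hens. Its lowest value, in Opaque-5, was 1 read, below the level of 3 counts. CACNA1B, a neuronal calcium channel subunit, was at 0.249 to 0.797 CPM in long-interval and 0.710 to 1.46 CPM in short-interval hens, with 3 reads each in Opaque-2 and Opaque-5. CHRNA1, a muscle acetylcholine receptor subunit, was at 0.615 to 1.73 CPM in long-interval and 1.68 to 2.98 CPM in short-interval hens.

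DMBT1L, a relative of a mucosal scavenger receptor, was at 0.257 to 2.22 CPM in long-interval hens and 2.0001 to 11.2 CPM in short-interval hens, with Translucent-5 as the only long-interval hen inside the range of the short class. Its log2 fold change was -2.72 ± 0.72 (SE) and its adjusted p in DESeq2 was 0.037. NSG1, a protein of endosomal trafficking in neurons, was at 4.49, 6.61, 19.0, 3.82 and 2.08 CPM in Translucent-1, -2, -5, Opaque-2 and -5 (long) and at 38.5, 20.6, 18.7, 13.1 and 5.08 CPM in Translucent-3, -4, Opaque-1, -3 and -4 (short). It spread widely in both classes and its counts were fractional in all 10 hens. The locus listed as RTase, the symbol of a reverse transcriptase, had 46.2 to 80.9 CPM in long-interval hens and 57.1 to 286 CPM in short-interval hens. STK17A, a kinase linked to apoptosis, had 1.23 to 6.43 CPM in long-interval and 5.02 to 14.7 CPM in short-interval hens. Fer1l4, of the ferlin membrane-fusion family, had 16.7 to 35.1 CPM in long-interval hens and 21.1 CPM in Opaque-3, against 47.6 to 54.1 CPM in the other short-interval hens. KLHL4, a kelch-repeat protein, averaged 1.10 ± 0.436 CPM in long-interval and 2.26 ± 0.707 CPM in short-interval hens (SD, n = 5 each).

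**Figure D4:**
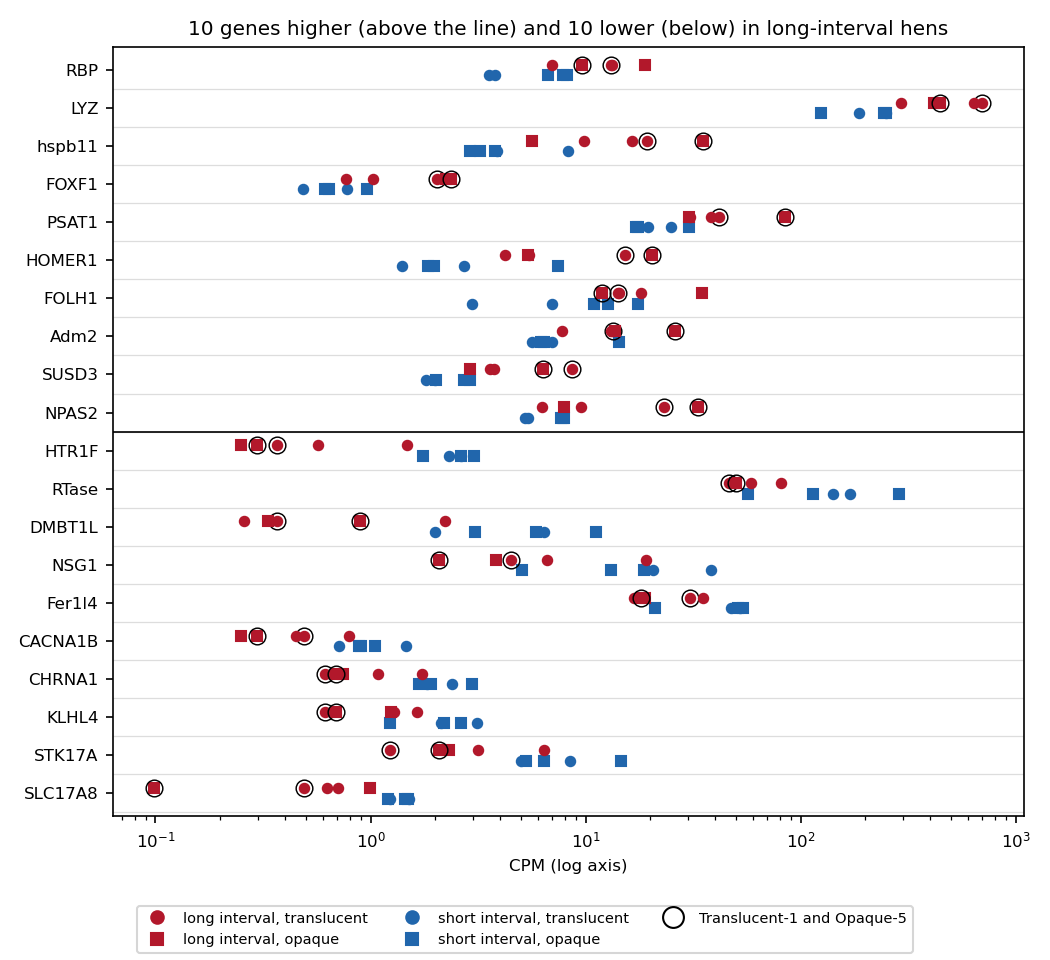
Level in each hen, in CPM on a log axis, of the 20 genes with the smallest p among those with an absolute log2 fold change over 1, 10 higher (above the line) and 10 lower (below it) in long-interval hens. For each gene long-interval hens (red) are drawn above short-interval hens (blue), circles are translucent and squares opaque hens, and rings mark Translucent-1 and Opaque-5. LYZ, SUSD3, HTR1F and SLC17A8 show no overlap between the classes, and the ringed hens are the highest 2 for hspb11, PSAT1, HOMER1, SUSD3 and NPAS2.

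Of the 8 genes that DESeq2 called with all hens, LYZ, RBP and hspb11 were higher, and HTR1F, DMBT1L, ENSGALG00000046331, the StringTie locus MSTRG.1254 and ENSGALG00000047025 were lower. ENSGALG00000047025 had reads in 1 hen only, 67 in all, so its call compares that hen with the rest, and it was not among the genes edgeR tested. Without Translucent-1 and Opaque-5, DESeq2 called 16 genes, of which RBP and ENSGALG00000047025 were called with all hens too, and 8 of the 16 were genes that edgeR tested. Among the genes that edgeR did not test, H2A-VIII, MSTRG.6019 and MSTRG.4152 had 11, 7 and 5 reads, each in 1 hen only. TLR1A, also not tested in edgeR, had reads in 8 hens. Of the 8 that edgeR tested, CHSY3, which makes chondroitin sulfate chains, and ABHD2, a hydrolase, were higher in Translucent-2, -5 and Opaque-2 but not in the pair. ABHD2 had 7.69, 36.1, 47.9, 54.9 and 7.22 CPM in Translucent-1, -2, -5, Opaque-2 and -5 (long), and 15.1 to 27.9 CPM in the short-interval hens. The long class thus lay on both sides of the short class for ABHD2. CHADL, a cartilage matrix protein, changed sign with the pair, with 25.7 and 17.3 CPM in Translucent-1 and Opaque-5, 0.0831 to 0.456 CPM in the other long-interval hens and 0.266 to 8.32 CPM in the short-interval hens.

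Circadian clock genes, which run daily rhythms in most tissues, lay on both sides of 0. Of 21 tested members 11 had a positive log2 fold change, with a median of 0.08 against 0.03 over all genes, 0 were called, and 1 higher and 1 lower reached an unadjusted p under 0.05, against 1.48% and 1.07% of all genes. With Translucent-1 and Opaque-5 left out, 13 of 21 were positive and the median was 0.18. In that fit 4 members, CLOCK, RORA, RORB and CSNK1E, reached an unadjusted p under 0.05, all higher in long-interval hens. Over all 13152 genes of that fit, 747 were higher and 456 lower at that p. NPAS2, a partner of BMAL1 that can stand in for CLOCK, had 23.3, 6.29, 9.51, 7.98 and 33.4 CPM in Translucent-1, -2, -5, Opaque-2 and -5 (long) and 5.42, 5.24, 7.94, 7.85 and 7.70 CPM in Translucent-3, -4, Opaque-1, -3 and -4 (short). Only Translucent-1 and Opaque-5 were well above the short class, and the log2 fold change was 1.34 ± 0.42 (SE) with them and 0.33 without them. CLOCK itself ran the other way in this pair, with 13.5 and 12.0 CPM, against 35.2 to 49.3 CPM in the other long-interval hens and 19.5 to 33.4 CPM in the short-interval hens. The log2 fold change of CLOCK was 0.08 ± 0.41 (SE) with all hens and 0.57 without the pair. RORA and RORB, nuclear receptors that activate clock genes, had log2 fold changes of 0.27 ± 0.56 and 0.54 ± 0.62 (SE) with all hens, and 0.85 and 1.10 without the pair, while CSNK1E, a kinase of the PER proteins, had 0.09 ± 0.18 (SE) and 0.30.

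CRY2, a repressor of the clock and the most abundant member, was at 129, 151, 198, 190 and 166 CPM in Translucent-1, -2, -5, Opaque-2 and -5 (long) and at 203, 224, 197, 230 and 221 CPM in Translucent-3, -4, Opaque-1, -3 and -4 (short). Only Translucent-5 of the long-interval hens reached the short range, and the log2 fold change was -0.35 ± 0.13 (SE) with all hens and -0.26 without the pair. CRY1 was at 153 ± 30.3 CPM in long-interval and 126 ± 24.3 CPM in short-interval hens (SD, n = 5 each), with overlap. PER2 and ARNTL, which encodes BMAL1, had log2 fold changes of 0.33 ± 0.27 and 0.20 ± 0.14 (SE). None of these differences passed adjustment in edgeR.

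No hormone or oviposition gene passed the test. Of 12 tested steroid receptor genes with their coregulators and targets, 9 had a negative log2 fold change, with a median of -0.11, and 0 reached an unadjusted p under 0.05. PGR, the progesterone receptor, was at 471, 583, 434, 466 and 476 CPM in Translucent-1, -2, -5, Opaque-2 and -5 (long) and at 550, 639, 579, 561 and 485 CPM in Translucent-3, -4, Opaque-1, -3 and -4 (short). All long-interval hens but Translucent-2 lay below the short class, yet the log2 fold change was only -0.23 ± 0.12 (SE). NR3C2, the mineralocorticoid receptor, had a log2 fold change of -0.30 ± 0.14, and SGK1, a kinase induced by corticosteroids, -0.66 ± 0.38 (SE) with wide overlap. GREB1, a target of the estrogen receptor, had the largest log2 fold change of the list. It was at 11.1, 5.39, 26.5, 35.0 and 18.0 CPM in Translucent-1, -2, -5, Opaque-2 and -5 (long) and at 6.06, 22.9, 7.09, 4.17 and 6.74 CPM in Translucent-3, -4, Opaque-1, -3 and -4 (short). Translucent-2 and Translucent-4 lay on the side of the other class, and the log2 fold change was 1.05 ± 0.58 (SE), or 1.25 without Translucent-1 and Opaque-5. Without that pair the median of the list was 0.09 with 7 of 12 positive. ESR1, the estrogen receptor, and NCOA3, a coactivator, then reached an unadjusted p under 0.05. Their log2 fold changes were 0.57 and 0.62, against 0.13 and 0.09 with all hens. Over all 13152 genes of the fit without the pair, 747 were higher and 456 lower at that p. Of 10 tested prostaglandin and oviposition genes 6 were positive, the median was 0.09, and 0 reached an unadjusted p under 0.05. PTGS1, a cyclooxygenase, was at 12.2 ± 2.38 CPM in long-interval and 9.90 ± 2.37 CPM in short-interval hens, and SLCO2A1, a prostaglandin transporter, was at 18.5 to 32.1 CPM in long-interval and 19.8 to 50.1 CPM in short-interval hens. PTGES3 and HPGDS, prostaglandin synthases and the most abundant members per length, had log2 fold changes of 0.18 ± 0.16 and 0.25 ± 0.45 (SE). Without the pair these were -0.0886 and -0.19, the median of the list was -0.04995 with 6 of 10 negative, and PTGER3, a prostaglandin E receptor, alone reached an unadjusted p under 0.05, at 0.40, against 0.06 with all hens.

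For the genes that make and crosslink the membrane fibers, no difference passed the test. Of 18 tested members 11 had a positive log2 fold change, the median was 0.09 against 0.03 over all genes, and 0 reached an unadjusted p under 0.05. Without Translucent-1 and Opaque-5 the direction turned, with 10 of 18 negative and a median of -0.0402, and again 0 at an unadjusted p under 0.05. COL10A1 was at 62150, 62788, 50799, 64461 and 66328 CPM in Translucent-1, -2, -5, Opaque-2 and -5 (long) and at 55979, 53193, 56793, 55438 and 59538 CPM in Translucent-3, -4, Opaque-1, -3 and -4 (short). In these TMM-scaled values Translucent-5 was the lowest of all hens and the other long-interval hens lay above the short class. The log2 fold change was 0.15 ± 0.13 (SE). That order depends on the scaling, since the TMM factors were 0.855 in Translucent-1 and 0.869 in Opaque-5, against 0.986 to 1.085 in the other hens. The FPKM sum of the 3 isthmus gland markers, COL10A1, LOXL2 and QSOX1, was lowest in Translucent-1. That sum was 27569 there and 29840 in Opaque-5, against 30353 to 33230 in the short-interval hens. It was 30903 in Translucent-5, inside that range, and 34355 and 37559 in Translucent-2 and Opaque-2, above it. The long class thus lay on both sides of the short class. LOXL2 was lowest in Translucent-1 and Opaque-5, at 5050 and 5234 CPM, and highest in Opaque-2, at 16906 CPM, all long-interval hens, and its log2 fold change was 0.08 ± 0.34 (SE) with all hens and 0.47 without the pair. P4HA1 and PLOD1, which hydroxylate the prolines and lysines of collagen, had log2 fold changes of 0.35 ± 0.17 and -0.30 ± 0.17 (SE).

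Shell gland transport and matrix genes, 18 of 27 positive with a median of 0.10, had 1 member, SLC4A5, a bicarbonate cotransporter, at an unadjusted p under 0.05. It was higher, against 1.48% of all genes. With Translucent-1 and Opaque-5 left out, 19 of 27 were positive with a median of 0.15. In that fit 3 higher members, ATP2B4, SLC4A4 and ITPR1, and 1 lower, CA2, a carbonic anhydrase, reached an unadjusted p under 0.05. Over all 13152 genes of that fit, 747 were higher and 456 lower at that p. SLC4A5 was scarce, at 1.38 ± 0.560 CPM in long-interval and 0.619 ± 0.384 CPM in short-interval hens (SD, n = 5 each). RARRES1 and EDIL3, shell matrix proteins and the most abundant members, had log2 fold changes of 0.10 ± 0.15 and 0.06 ± 0.42 (SE), and -0.0464 and 0.44 without the pair. ATP2B1, a calcium pump, was at 81.4 ± 20.4 CPM in long-interval and 64.1 ± 16.7 CPM in short-interval hens (SD, n = 5 each).

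Lists of general cell state also turned with Translucent-1 and Opaque-5. All 70 tested genes of the cytosolic ribosomal protein list had a positive log2 fold change, with a median of 0.26, but 0 reached an unadjusted p under 0.05. The list was taken by symbol and includes RPS19BP1, named for binding a ribosomal protein, which had its largest value, 0.49. Without the pair 62 of 70 were negative with a median of -0.10, and 1 gene, lower, reached that p. Over all 13152 genes of the fit without the pair, 747 were higher and 456 lower at that p. RPL36AL, RPS3 and RPS3A, proteins of the large and small ribosomal subunits, had log2 fold changes of 0.42, 0.34 and 0.26, and 0.10, 0.10 and 0.02 without the pair. All 13 mitochondrially encoded genes were positive with a median of 0.13, and 0 reached an unadjusted p under 0.05. That median was -0.00278 with library totals alone in place of TMM. It was -0.06 within translucent hens and 0.38 within opaque hens. Their share of all counts averaged 3.69% in long-interval and 3.73% in short-interval hens. All 13 were negative without the pair with a median of -0.29, and 5 of them then reached an unadjusted p under 0.05. MT-CO1, a subunit of cytochrome oxidase, was at 17323, 10755, 8511, 12282 and 24519 CPM in Translucent-1, -2, -5, Opaque-2 and -5 (long) and at 11154, 13501, 12634, 13198 and 15200 CPM in Translucent-3, -4, Opaque-1, -3 and -4 (short). Opaque-5 was the highest and Translucent-5 the lowest of all hens, both long-interval. ND1, MT-ND2 and COII, other respiratory chain subunits, had log2 fold changes of 0.32, 0.23 and 0.11, and -0.15, -0.24 and -0.42 without the pair. Endoplasmic reticulum folding genes, 22 of 25 positive with a median of 0.18, had 17 of 25 negative without the pair with a median of -0.11. At an unadjusted p under 0.05 there were 0 members with all hens, and 4 lower and 1 higher without the pair. HERPUD1, XBP1, ATF4 and CALR, of the unfolded protein response and protein folding, had log2 fold changes of 0.73, 0.41, 0.42 and 0.24, and 0.13, -0.05, -0.17 and -0.28 without the pair. Smooth muscle genes, 12 of 16 positive with a median of 0.16, had 11 of 16 negative and a median of -0.13 without it. CNN1, a smooth muscle calponin, was at 50.6 and 28.7 CPM in Translucent-1 and Opaque-5, at 3.42 to 10.1 CPM in the other long-interval hens, and at 4.0002 to 12.4 CPM in the short-interval hens. KCNMB1, a potassium channel subunit of smooth muscle, had a log2 fold change of 0.83 ± 0.39 (SE), and TPM1 and TPM2, tropomyosins, 0.37 ± 0.25 and 0.15 ± 0.24 (SE). Without the pair these were 0.17, -0.10 and -0.23.

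Stress genes also changed with the pair, but in the other direction. The immediate early and heat shock list had 17 of 25 members with a negative log2 fold change and a median of -0.29, against 0.03 without the pair. The negative members included the immediate early genes FOS, DUSP1 and EGR1, at -1.06 ± 0.86, -0.92 ± 0.63 and -0.59 ± 0.78 (SE). The heat shock genes HSPA8, HSP90AA1 and HSPH1 were among the 8 positive members. HSPA8, a constitutive chaperone, was at 2898 and 2991 CPM in Translucent-1 and Opaque-5, at 869 to 1235 CPM in the other long-interval hens, and at 877 to 1574 CPM in the short-interval hens. HSP90AA1, a chaperone, had a log2 fold change of 0.46 ± 0.23 (SE). HSPH1, another heat shock gene, was the only member at an unadjusted p under 0.05, against 1.48% of all genes higher. HSPH1 had 61.1 ± 11.2 CPM in long-interval and 49.2 ± 6.14 CPM in short-interval hens (SD, n = 5 each). Without the pair 0 members of the list reached that p. Cell cycle genes (13 of 18 positive, median 0.18) and motile cilium genes (9 of 15 positive, median 0.02) had 0 members at an unadjusted p under 0.05 with all hens. Their medians were 0.01 and 0.16 without the pair. In that fit 0 cell cycle members and 2 motile cilium members, both higher, reached an unadjusted p under 0.05, against 747 higher of all 13152 genes. Log2 fold changes were -0.63 ± 0.35 for TYMS, thymidylate synthase, 0.47 ± 0.33 for CDK1, the mitotic kinase, and 0.01 ± 0.17 for PCNA, the sliding clamp of DNA replication (SE). FOXJ1, the regulator of motile cilia, and DNAI2, a dynein chain, had 0.25 ± 0.14 and 0.31 ± 0.22, and RSPH1 and TPPP3, of the axoneme and microtubules, -0.01 ± 0.19 and 0.10 ± 0.22 (SE).

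**Figure D5:**
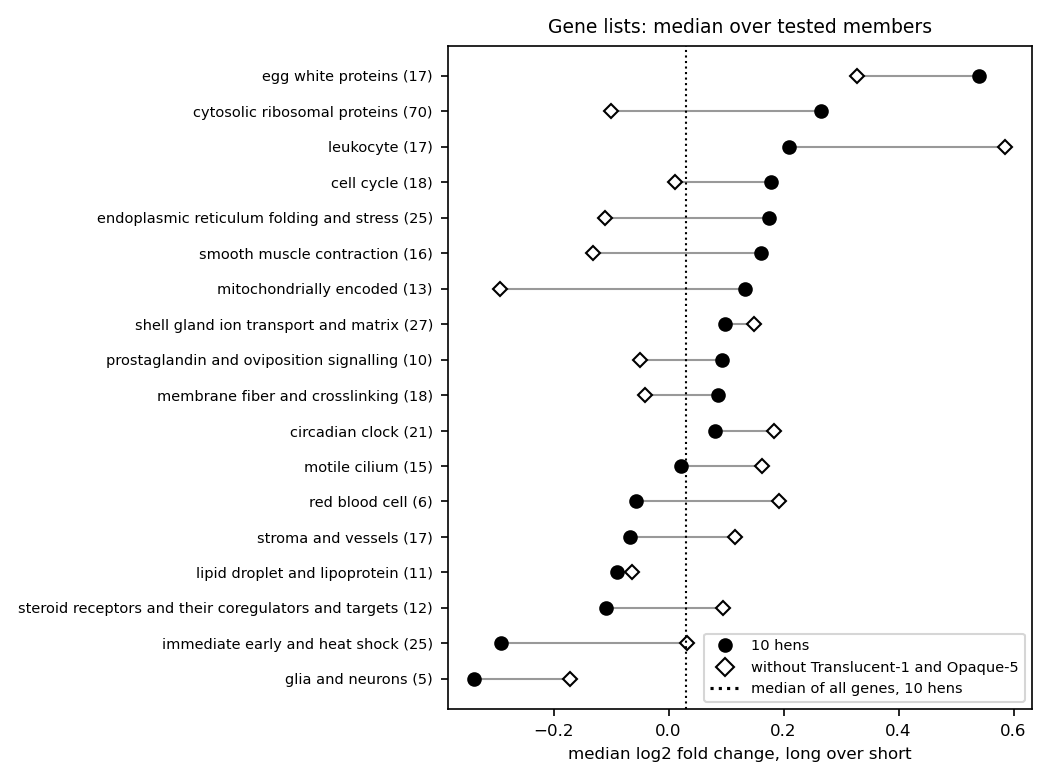
Median log2 fold change, long over short, of the tested members of each gene list, with the number of members in parentheses. Filled circles are the fit of all 10 hens and open diamonds the fit without Translucent-1 and Opaque-5. The dotted line is the median of all genes with all 10 hens, 0.03, and without the pair that median was -0.01. The egg white list is the highest with all hens, at 0.54 and 0.33 without the pair, whereas the ribosomal protein and mitochondrially encoded lists pass from above to below 0.

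Genes of other cell types varied from hen to hen within both classes. Leukocyte genes, 12 of 17 positive with a median of 0.21, had a median of 0.78 within translucent hens and -0.35 within opaque hens, and 16 of 17 were positive with a median of 0.59 without the pair. With all hens 0 members reached an unadjusted p under 0.05. Without the pair 1 did, higher, against 747 higher of all 13152 genes. JCHAIN, the joining chain that plasma cells add to secreted immunoglobulins, was at 850, 928, 2957, 1139 and 478 CPM in Translucent-1, -2, -5, Opaque-2 and -5 (long) and at 691, 1057, 1176, 1027 and 157 CPM in Translucent-3, -4, Opaque-1, -3 and -4 (short). Translucent-5 alone lay far above the rest, and Opaque-4 far below. PIGR, the epithelial receptor that carries these immunoglobulins into the lumen, was at 208 ± 42.8 CPM in long-interval and 158 ± 33.8 CPM in short-interval hens (SD, n = 5 each). CD3E, a T cell receptor subunit, and IGLL1, listed as an immunoglobulin light chain, had log2 fold changes of 0.45 ± 0.42 and 0.27 ± 0.46 (SE). The 6 matched leukocyte markers, all with reads, summed to 110 to 480 FPKM in long-interval hens and 168 to 340 FPKM in short-interval hens. Translucent-5 alone had the 480 FPKM. Translucent-2 and Opaque-2, the other long-interval hens of the fit without the pair, had 204 and 250 FPKM, inside the short-interval range.

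Stroma and vessel genes (5 of 17 positive, median -0.07), red blood cell genes (2 of 6 positive, median -0.06) and glial and neuronal genes (1 of 5 positive, median -0.34) had 0 members at an unadjusted p under 0.05, with or without Translucent-1 and Opaque-5. Without that pair their medians were 0.12, 0.19 and -0.17. PECAM1, SPARC and DCN, of endothelium and matrix, were among the 5 positive stroma members, with log2 fold changes of 0.21, 0.21 and 0.05. The other 12 were negative, among them the collagen genes COL3A1, COL1A2 and COL1A1, at -0.38, -0.31 and -0.21. SLC4A1, HBAD, HBBA and HBA1, the red cell anion exchanger and globins, had log2 fold changes of -0.28, -0.27, 0.01 and -0.03. MBP, a myelin protein, reached 38.7 CPM in Translucent-5 (long) and 36.0 and 25.9 CPM in Translucent-4 and -3 (short), and was at most 6.68 CPM in the other hens. UCHL1, a neuronal ubiquitin hydrolase, was at 170 ± 35.4 CPM in long-interval and 131 ± 22.0 CPM in short-interval hens, and NEFL, a neurofilament, at 0.901 ± 0.338 CPM in long-interval and 1.27 ± 0.288 CPM in short-interval hens (SD, n = 5 each). The 9 glial and neuronal markers summed to 3.33 to 33.1 FPKM in long-interval and 7.98 to 26.9 FPKM in short-interval hens, and whether they move with the scarce neuronal genes above was not tested. In the lipid droplet and lipoprotein list 5 of 11 were positive with a median of -0.09, and also 5 of 11 without the pair, with a median of -0.0641. APOA1, the main apolipoprotein of high-density lipoprotein, was the 1 member at an unadjusted p under 0.05, against 1.48% of all genes higher. It was at 87.5 ± 18.0 CPM in long-interval and 65.4 ± 11.8 CPM in short-interval hens (SD, n = 5 each). Its log2 fold change was 0.42 ± 0.18 (SE) and 0.43 without the pair. In the fit without the pair APOA1 did not reach that p, while 1 other member, lower, did, against 456 lower of all 13152 genes. FASN, fatty acid synthase, and PLIN2, a coat protein of lipid droplets, had -0.26 ± 0.14 and 0.11 ± 0.20 (SE).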

How the data were processed

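White isthmus libraries of 10 hens were analysed. Per the study's methods and processing notes, the authors used fastp for read cleaning, Bowtie2 to discard rRNA, HISAT2 for alignment, StringTie for assembly and RSEM for gene quantification, and the genome build is not given in the sources used here. The deposited table held the authors' expected counts (17617 rows, 16666 of them Ensembl genes and 951 StringTie loci) and the authors' FPKM, which are scaled to depth and gene length. Of the counts, 6.73% were fractional and were rounded.

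Classes followed the interval the study recorded for each hen, not the labels. Counts were fitted with edgeR 4.0.16 in R 4.3.3 (TMM, low-count filter by expression, quasi-likelihood test, eggshell class as covariate), with Benjamini-Hochberg adjustment over 12858 genes, and the script was tested on simulated data. Alternatives used DESeq2 1.42.0, limma 3.58.1 (voom, and log2 FPKM with a pseudocount of 1 or 0.1), other scalings, filters, covariates and hens. Plots used matplotlib 3.10.9. Library properties were compared by an exact two-sided permutation within eggshell classes (100 allocations, smallest p 0.01).

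Since edgeR called no gene, the named genes were the 10 with the smallest edgeR p in each direction. They were taken among tested genes with a symbol and an absolute log2 fold change over 1. From each list, the 2 with the smallest p and the 2 with the highest FPKM were named too. The other genes named, among them further egg white, clock and hormone genes and genes called by DESeq2, were chosen after their values were seen. A gene that this rule names is not reported here. The comparison and the lists (389 of 427 symbols matched) were chosen with earlier results of these data known.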

Additional observations from a re-analysis of the deposited data

Results flagged for a closer look

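In 7 of 118 class values tested, 1 hen lay far from the other 4 of its class, by the gap to the nearest hen over the whole range of log2 CPM, with a limit of 0.71. Chance gives such a gap in about 0.05 of groups, which is close to the share of 7 in 118 found here. These gaps are therefore about as many as chance gives, and they are listed as values only. In short-interval hens, hspb11 was highest in Translucent-4 at 3.08, against 1.59 to 2.002 in the others (ratio 0.725). Adm2 was highest in Opaque-3 at 3.86, against 2.52 to 2.83 (0.771), and Fer1l4 was lowest in Opaque-3 at 4.41, against 5.58 to 5.76 (0.863). XBP1 was lowest in Translucent-3 at 8.05, against 8.24 to 8.29 (0.767), as was CDK1 at 2.59, against 3.51 to 3.83 (0.741). SPARC was highest in Translucent-4 at 7.55, against 6.98 to 7.14 (0.726). In long-interval hens, UCHL1 was lowest in Translucent-5 at 6.78, against 7.43 to 7.65 (0.744).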

How the results depend on the processing

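edgeR and limma called 0 genes under all their alternatives run, and leaving out each hen in turn gave 0 calls in edgeR. DESeq2 called 8 genes, and 16 without Translucent-1 and Opaque-5, a setting chosen, like the interval in hours without them, after seeing the data. The genes at unadjusted p of at most 0.05 with absolute log2 fold change over 1 numbered 77 in edgeR, 147 in DESeq2, 116 in limma-voom, 166 with no low-count filter, 43 with at least 10 reads in every hen, 126 in the 6 hens numbered 1 to 3, 123 in translucent hens alone, 21 on log2(FPKM + 1), 158 without Translucent-1 and Opaque-5, and 216 in DESeq2 without them. Leaving out 1 hen gave 63 (Translucent-1) to 169 (Opaque-2). Among genes named for a small p, signs turned without Translucent-1 and Opaque-5 for CNN1 (-0.21, and -0.22 in DESeq2), XBP1 (-0.0505, -0.0527), HSPA8 (-0.00344, -0.00705), CDK1 (-0.0811, -0.0841), ND1 (-0.15, -0.16) and MT-ND2 (-0.24, -0.24, and -0.0156 on hours). Among those named for level, PTGES3 (-0.0886), HPGDS (-0.19), RARRES1 (-0.0464), TPM1 (-0.10), TPM2 (-0.23), ATF4 (-0.17), CALR (-0.28), PCNA (-0.29), TPPP3 (-0.18), HBA1 (0.24), MT-CO1 (-0.28) and COII (-0.42) turned without that pair, and of 135 genes looked at for level or after their values were seen, 51 turned in at least 1 setting. Signs also turned for ND1 (-0.00586) and MT-ND2 (-0.11) in limma-voom, for CD3E (-0.17) and SLC4A1 (0.15) in opaque hens alone, and for SPARC (-0.11) and MT-ND2 (-0.0572) in translucent hens alone. Leaving out each hen in turn gave -0.52 to 0.00154 for HBAD, -0.00419 to 0.39 for SPARC and -0.0491 to 0.35 for MT-ND2. The median of all genes was -0.08 on log2(FPKM + 1) and -0.11 on log2(FPKM + 0.1). The cause of these changes was not tested. No paired analysis was possible because each hen gave 1 library in 1 class and the labels give no pairing of hens. Genes near 3 reads a hen, such as HTR1F, SLC17A8 and CACNA1B, are limited by depth.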
